A study of Mus musculus and Homo sapiens with 10 samples.

Results

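Regions of mouse embryonic stem cells (mESC) that carry both H3K122ac and H3K64ac, acetylation of histone H3 at lysines K122 and K64, between exactly the same ends are described here. Both lysines lie in the globular domain of H3, around which DNA is wrapped, and not in the flexible tail. K122 sits at the nucleosome dyad and K64 at the start of the first helix of the histone fold, both close to the DNA, and the loss of either positive charge is known to weaken the grip of the histones on DNA. Both acetylations are known from active chromatin, whereas H3K27ac, on the tail, is the usual mark of active promoters and enhancers. The study mapped these marks by native chromatin immunoprecipitation, in which chromatin is cut with micrococcal nuclease without a crosslink. The cells were undifferentiated 46c ESCs, which carry a GFP reporter in Sox1, between passages 25 and 28, grown without feeders in serum with LIF. Each mark had 2 biological replicates. The authors deposited 1 list of enriched regions, called islands, per mark, made from the merged replicates, so no value here has a replicate error. Intervals for a single island cover counting error only, and intervals for a median rest on the spread between islands taken as independent. All groups compared are the same cell line without treatment, and the labels name no difference between the libraries other than the antibody. The H3K27ac islands were also joined across a shorter gap, 200 bp against 600 bp for the other marks.

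An island belongs to the set if its chromosome, start and end are identical in the H3K122ac and the H3K64ac list, on the 19 numbered chromosomes. This held for 5136 islands, which were 5.68% of the 90442 H3K122ac islands and 9.19% of the 55876 H3K64ac islands on those chromosomes. They covered 12.3 Mb and held 5.98% of the H3K122ac reads and 6.18% of the H3K64ac reads of those islands. The choice therefore rests on the calls of both marks, and the enrichment of each mark in the set is a description and not a finding. Because an island had to be called in both lists, regions with only 1 of the marks are absent by construction. Islands are given by their mm9 coordinates and were not assigned to genes here. For the same reason, stem cell marker genes were not looked up.

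Most of these islands held similar shares of the reads of the H3K122ac and the H3K64ac list. For each island, the H3K122ac reads were divided by all 44320255 reads of the H3K122ac list, the H3K64ac reads by all 38692934 reads of the H3K64ac list, and the log2 ratio of these shares was taken, so that a positive value means a larger share of H3K122ac. Dividing each list by its own total fixes where 0 lies. The median log2 ratio was -0.03 (95% interval of the median -0.05 to -0.02, n = 5136 islands), a ratio of shares of 0.979 in the median island. The standard deviation over islands was 0.51, the middle 50% of islands lay between -0.36 and 0.35, and the middle 90% between -0.76 and 0.90. A total of 3813 islands, or 74.2%, differed by less than 1.5-fold. Counting error alone, worked out from the reads of each island, would give a standard deviation of 0.13 and accounted for 6.49% of the variance. The spread between islands is therefore larger than the counting error, but how much of it lies between replicate cultures was not tested, as the replicates were merged.

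The depth behind these ratios was high. An island held 42 to 7422 H3K122ac reads (median 334), 50 to 11948 H3K64ac reads (median 277) and 2 to 1980 reads of the background library (median 105). The background count of an island was the same in both lists, so it cancels from a ratio of the folds. The ratio of read shares does not contain it, and background reads within the counts of each mark are not removed from that ratio. In 1669 islands (32.5%) the 95% counting interval lay wholly above equal share, in 1734 (33.8%) wholly below it, and in 1733 it held equal share. Over background, the median fold was 3.75 for H3K122ac, from 1.17 to 76.9, and 2.62 for H3K64ac, from 1.103 to 39.9. Across the 5136 islands the log2 folds of the marks had a Pearson r of 0.80 and a Spearman rho of 0.77, and both folds contain the same background count. Reads per kb, which do not contain it, had an r of 0.68 and a rho of 0.66.

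**Figure D1:**
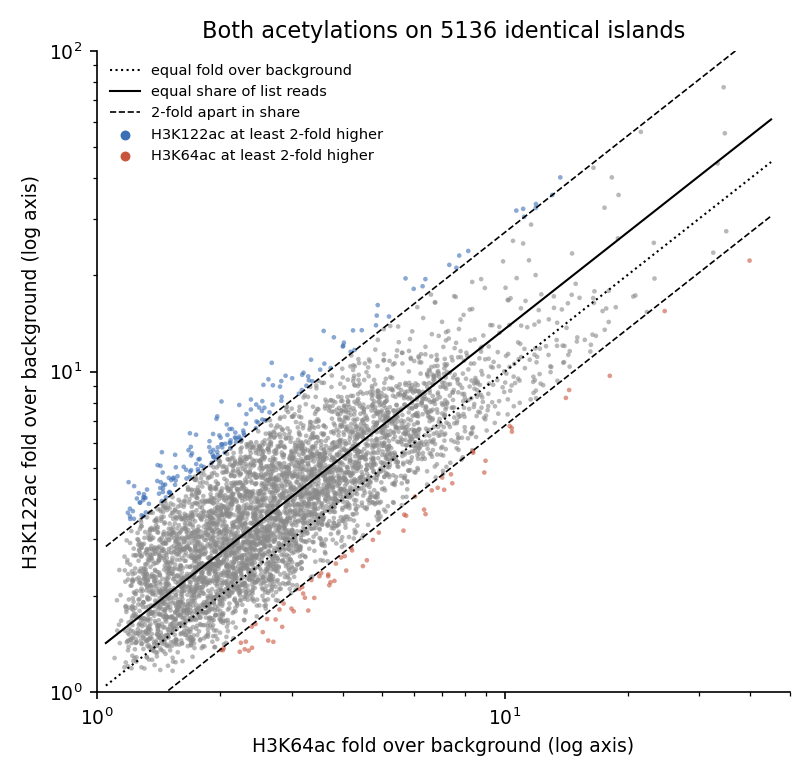
H3K122ac against H3K64ac fold over background (both axes logarithmic) for 5136 islands, 1 point each. The solid line is equal share of list reads, the dotted line equal fold, and the dashed lines a 2-fold difference in share; 175 blue islands lie above the upper dashed line and 69 red islands below the lower one.

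Islands at least 2-fold from equal share were a small part of the set when all reads were counted. The share of H3K122ac was at least 2-fold higher in 175 islands, 3.41% of those compared, and the share of H3K64ac in 69 islands, 1.34%. With the whole counting interval required to lie past 2-fold, 32 and 12 islands remained. With reads above background in place of all reads, the numbers were 883 and 290 of the 5136 islands. The 175 islands were shorter than the set as a whole (median 1000 bp against 1800 bp), and 52% of them met an H3K27ac island against 70.3% of the set. Their median folds were 6.14 for H3K122ac and 2.03 for H3K64ac. The 69 islands had a median length of 1800 bp, 72.5% met H3K27ac, and their median folds were 2.35 for H3K122ac and 3.82 for H3K64ac.

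Which mark is called stronger overall depended on the scale. The authors' folds divide each library by its own ratio to the background library, 0.913 for H3K122ac and 1.08 for H3K64ac. On that scale the median log2 ratio was 0.41 (0.39 to 0.43), H3K122ac was higher in 80.6% of islands against 47.4% by read share, and 780 islands (15.2%) had an H3K122ac fold at least 2-fold higher while none had the reverse. The whole distribution moves by 0.44 between the scales, and equal fold corresponds to -0.44 on the scale of read shares. No measure in the lists sets the absolute amount of either mark. Medians are therefore compared between islands below, as a change of library scaling leaves the differences between medians untouched. The medians themselves are given on the scale of read shares, and their sign depends on it. Counting reads above background is not a mere rescaling and did change the differences. Counts of islands at least 2-fold apart are measured from equal share and do change with the scale.

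Among the eligible islands, with at least 100 reads in each list and at least 10 background reads (4794 of 5136), the most H3K122ac-rich was chr15:68715601-68716400 (mm9), an island of 800 bp. It held 361 H3K122ac and 107 H3K64ac reads over 49 background reads, a log2 ratio of 1.56 (1.24 to 1.88, exact counting interval). Its folds were 8.07 and 2.02. The same 800 bp were also an island of H3K27ac, with 169 reads and a fold of 1.58. At chr5:84807601-84808400, also 800 bp long, 389 H3K122ac reads stood against 116 H3K64ac reads, a log2 ratio of 1.55 (1.25 to 1.86). At chr5:116490001-116491400 the counts were 430 and 131, with a ratio of 1.52 (1.23 to 1.81) and an H3K64ac fold of 1.44, against a lowest of 1.103 in the set. Those 3 islands all met H3K27ac.

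The next 3 in the order were larger in length or counts. At chr19:23581201-23583000 the ratio was 1.48 (1.24 to 1.72), from 607 and 190 reads, and the nearest H3K27ac island lay 7400 bp away. Its H3K64ac fold was only 1.19, near the lowest of the set, 1.103. At chr10:127657201-127659800, 2600 bp long, 1304 H3K122ac and 420 H3K64ac reads gave 1.44 (1.28 to 1.60). At chr17:34528601-34529600 the counts of 475 and 155 gave 1.42 (1.16 to 1.69). The counting intervals of these 6 islands overlap, so their order is not set by the counts.

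At the other end, chr6:142442001-142443200 had 109 H3K122ac and 243 H3K64ac reads over 83 background reads, a log2 ratio of -1.35 (-1.69 to -1.02). Its H3K122ac fold was 1.44 and its H3K64ac fold 2.71. At chr11:27876601-27878600 the ratio was -1.34 (-1.66 to -1.03), from 124 and 274 reads. Background was very low there, 14 reads over 2000 bp, and the folds were 9.70 and 18.1. Both marks were thus well above background in that island, and it lay 800 bp from the nearest H3K27ac island. At chr18:7607201-7609000 the counts were 208 and 453, with a ratio of -1.32 (-1.56 to -1.08), and the strongest H3K27ac island met there had a fold of 3.15.

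The remaining islands of this end were chr3:109075401-109078000 with a ratio of -1.31 (-1.57 to -1.06), chr15:33836201-33838200 with -1.30 (-1.54 to -1.06), and chr16:17076601-17078200 with -1.30 (-1.65 to -0.95). The second of these lay wholly inside H3K27ac, while the first and the last met none. The last had an H3K122ac fold of only 1.45. Of the 6 islands richest in H3K122ac 5 met H3K27ac, and of the 6 richest in H3K64ac 3 did, beside 70.3% of the set. In the full groups of 175 and 69 islands the order was the opposite, 52% and 72.5%.

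**Figure D2:**
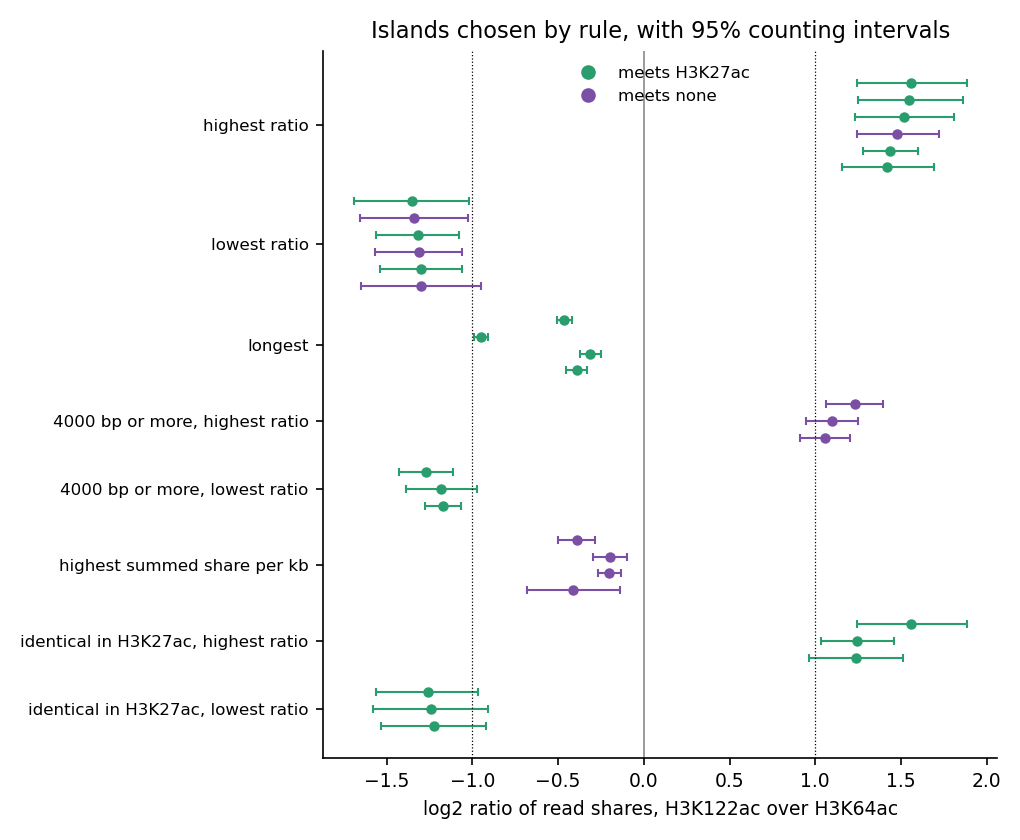
Log2 ratio of read shares (x axis) for the islands chosen by rule, grouped by the reason for the choice; points are islands and bars 95% counting intervals. Of islands of 4000 bp or more, the 3 with the highest ratio met no H3K27ac and the 3 with the lowest met it, as did 86.6% of all islands of that length.

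Over all islands of the set, length went with the ratio. Islands of up to 1000 bp (962) had a median log2 ratio of 0.13 (0.08 to 0.19), which is 0.16 above the set, and islands of 4000 bp or more (664) had -0.19 (-0.23 to -0.15), which is 0.16 below it. Over the length classes the median was 0.20 for 200 to 400 bp, 0.22 for 600 bp, 0.10 for 800 to 1000 bp, -0.02 for 1200 to 2000 bp, -0.04 for 2200 to 4000 bp, -0.16 for 4200 to 8000 bp and -0.31 for the 116 islands over 8000 bp. The intervals of neighbouring classes overlap among the 3 shortest and between the classes from 1200 to 4000 bp. The short islands had the higher median on 19 of 19 chromosomes, by 0.06 to 0.88. An excess of H3K122ac of at least 2-fold was present in 90 (9.36%) of the islands up to 1000 bp, in 3 (0.452%) of those of 4000 bp or more, and in 3.41% of the set. In reads per kb, the short islands had a median of 196 for H3K122ac against 184 in the set, and of 153 for H3K64ac against 154. At 200 to 400 bp the medians were 292.5 for H3K122ac and 192.5 for H3K64ac, and at 600 bp 230.0 and 165. The long islands had 201 for H3K122ac and 190 for H3K64ac, so both were above the set there, H3K64ac by more. Across islands, log2 ratio and log2 length had a Pearson r of -0.19 and a Spearman rho of -0.16. The fall with length was seen in islands that met H3K27ac. Their medians were 0.14 up to 1000 bp, -0.03 and -0.09 in the classes up to 2000 and 4000 bp, and -0.24 above. Without H3K27ac the medians of the same classes were 0.12, 0.00, 0.16 and 0.18, with no such fall.

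The longest islands were shared domains with several H3K27ac islands each. H3K27ac islands were joined across gaps of 200 bp and those of the other marks across 600 bp. The numbers of H3K27ac islands therefore depend on this setting and are not counts of separate elements. The longest, chr4:127000601-127027600, spanned 27000 bp with 7422 H3K122ac and 8939 H3K64ac reads, a log2 ratio of -0.46 (-0.51 to -0.42), and held 6 H3K27ac islands over 75.6% of its length. The next, chr4:55469401-55496200, spanned 26800 bp with 7080 and 11948 reads. Its ratio of -0.95 (-0.99 to -0.91) was the farthest from 0 of the 4 longest, and its H3K64ac fold was 7.19 against 5.05 for H3K122ac. At chr6:108642001-108661200 and chr8:97651801-97671000, both 19200 bp long, the ratios were -0.31 (-0.37 to -0.25) and -0.39 (-0.46 to -0.33), and each held 5 H3K27ac islands. All 4 thus held relatively more H3K64ac than the median island.

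Of all islands of 4000 bp or more, 86.6% met H3K27ac. The 3 with the highest ratio met none. These were chr5:75548801-75553200, with 1102 against 410 reads and a ratio of 1.23 (1.07 to 1.40), chr9:122477601-122482400 with 1.099 (0.95 to 1.25), and chr1:180457401-180461400 with 1.06 (0.91 to 1.202). Their nearest H3K27ac islands lay 16800, 41800 and 11000 bp away. Their H3K64ac folds were 1.30, 1.45 and 2.12, so H3K64ac was little above background in the first and second. The 3 with the lowest ratio all met H3K27ac, as most islands of this length did. At chr3:96051201-96055400, 499 H3K122ac reads stood against 1051 H3K64ac reads, a ratio of -1.27 (-1.43 to -1.12). At chr14:21929801-21934000 the ratio was -1.18 (-1.39 to -0.98), with an H3K122ac fold of only 1.34. At chr5:137746001-137750400, with 1083 and 2128 reads, the ratio was -1.17 (-1.28 to -1.06).

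H3K27ac, which played no part in the choice of islands, was met by 3610 of the 5136 (70.3%). This was above the 55.0% of the other H3K122ac islands and close to the 73.0% of the other H3K64ac islands. These groups are unlike the set, as 35680 of the other H3K122ac islands met no H3K64ac island. The other H3K64ac islands were longer, with a median of 2800 against 1800 bp. Within the set, 43.4% of islands of 200 to 400 bp met H3K27ac and 95.7% of those over 8000 bp. The part of length and of H3K64ac in these shares was not tested. An island that met H3K27ac was covered by it over a median of 75% of its length, and 728 met more than 1 H3K27ac island. For the 1526 islands without it, the median distance to the nearest one was 7800 bp, and 102 of them were more than 50000 bp away. Median folds were 4.05 for H3K122ac and 2.90 for H3K64ac with H3K27ac, and 3.18 and 2.01 without it.

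In the set as a whole, H3K122ac was stronger relative to H3K64ac where H3K27ac was absent. The median log2 ratio was 0.08 (0.03 to 0.13) without H3K27ac and -0.07 (-0.09 to -0.05) with it, and it was lower with H3K27ac on 17 of 19 chromosomes. In islands up to 2000 bp the intervals with and without H3K27ac overlapped. In the islands of lowest background density the medians were -0.23 with H3K27ac and -0.21 without it. In the second group they were -0.05 and 0.11, and in the third -0.004 and 0.06. In the highest they were 0.06 (0.01 to 0.09) and 0.22 (0.17 to 0.28). The intervals overlapped or touched in all groups but the highest. The size depended on the criterion: islands without H3K27ac stood 0.12 above the median of the set, but 0.0369 above it when an H3K27ac fold of 2 was needed, 0.0504 when 50% cover was needed, and 0.30 for reads above background. An H3K122ac excess of at least 2-fold was found in 84 (5.50%) of the islands without H3K27ac and in 91 (2.52%) of those with it, beside 3.41% of the set. An H3K64ac excess was found in 19 (1.25%) and 50 (1.39%), beside 1.34%. By the fold of the strongest H3K27ac island met, the median ratio was -0.02 below 1.5 (1300 islands), -0.03 at 1.5 to 2, -0.13 at 2 to 3 and -0.28 (-0.33 to -0.25) for the 343 islands at 3 or more. The intervals of the classes below 1.5 and at 1.5 to 2 overlap. Below a fold of 1.5 the picture depended on where a further class was closed. The 53 islands below 1.15 had a median of -0.21 (-0.31 to -0.08) and the 163 below 1.2 had -0.11 (-0.19 to -0.01), whereas the 340 below 1.25 had -0.01 (-0.07 to 0.05). With the boundary at 1.3, 1.35 or 1.4 the median below it was -0.01, -0.02 or -0.03. Background reads per kb were lower along the same classes, from a median of 68.0 below 1.5 to 25 at 3 or more, and their part in the order was not tested.

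**Figure D3:**
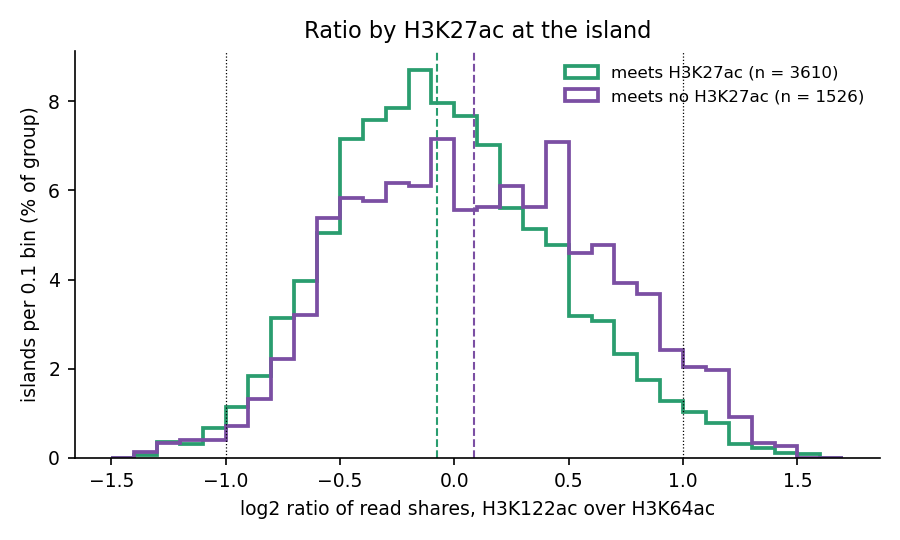
Distribution of the log2 ratio of read shares (x axis) as percent of islands per bin of 0.1, for the 3610 islands that meet H3K27ac and the 1526 that do not; dashed lines are the medians, -0.07 and 0.08, and dotted lines a 2-fold difference. The curve without H3K27ac extends farther to the right.

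The difference lay in the longer islands. Up to 1000 bp the median ratio was 0.14 (0.07 to 0.19) with H3K27ac and 0.12 (0.02 to 0.22) without, and from 1200 to 2000 bp it was -0.03 and 0.00, with overlapping intervals. From 2200 to 4000 bp it was -0.09 (-0.12 to -0.06) with and 0.16 (0.05 to 0.23) without, and over 4000 bp -0.24 (-0.29 to -0.20) with and 0.18 (0.03 to 0.33) without, the last in 73 islands. Over 2000 bp the median was lower with H3K27ac on 18 of 19 chromosomes, by a median of 0.28, although as few as 8 islands without H3K27ac stood on a chromosome. Up to 2000 bp it was lower on 12 of 19. In reads per kb, islands over 4000 bp held a median of 206 for H3K122ac and 206 for H3K64ac with H3K27ac, and 174 and 133 without it.

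The background library moved with the ratio as well. In the 1285 islands of lowest background density the median log2 ratio was -0.22 (-0.26 to -0.19), and in the 1282 of highest density 0.13 (0.08 to 0.17). The order held on 19 of 19 chromosomes, by 0.10 to 0.61. In these groups the median background was 31.7 and 80.4 reads per kb, H3K122ac 152 and 213, and H3K64ac 148 and 163. Across islands, log2 reads per kb of H3K122ac and of background had a Pearson r of 0.26 and a Spearman rho of 0.25, against 0.12 and 0.11 for H3K64ac. The medians shifted the same way within each length class, for example from -0.41 to -0.05 over 4000 bp. Up to 1000 bp they were 0.07 (-0.04 to 0.19) and 0.24 (0.12 to 0.36), with overlapping intervals. Islands without H3K27ac had more background, at 66.3 against 55.7 reads per kb. In islands over 2000 bp the ratio was lower with H3K27ac by 0.24, 0.23 and 0.29 in the 3 groups of higher background, but by only 0.04 in the lowest, where 41 islands lacked H3K27ac.

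**Figure D4:**
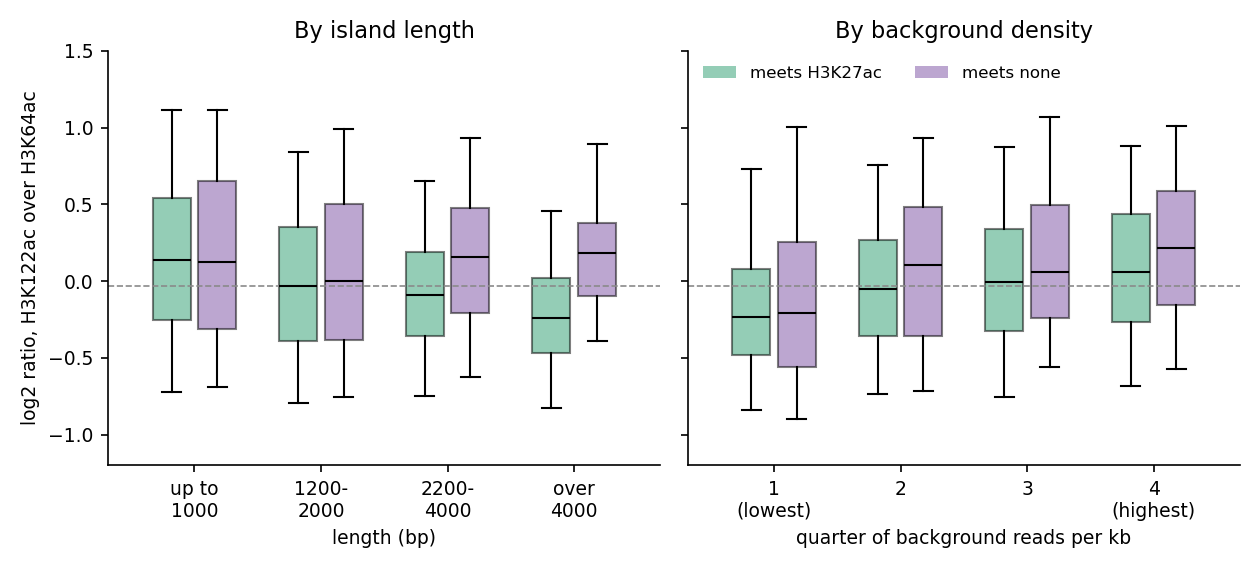
Log2 ratio of read shares (y axis) by island length and by background density, with and without H3K27ac; boxes span the middle 50% of islands, lines are medians, whiskers reach the 5th and 95th percentiles and the dashed line is the median of all islands. The medians with and without H3K27ac part above 2000 bp. By background they are close in the lowest group, and their 95% intervals are clearly apart only in the highest.

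The 4 islands densest in both marks had 178 to 464 background reads per kb. The densest, chr2:98506201-98507600, held 1311 H3K122ac and 1501 H3K64ac reads in 1400 bp, over 649 background reads, or 464 per kb, where the median of the set was 58.3. Its folds were 2.21 and 2.14. The others were chr15:74915801-74917600, chr17:39979801-39985800 and chr19:45724401-45724800, with 237, 268 and 178 background reads per kb. Their log2 ratios ran from -0.41 to -0.20, and none of the 4 met H3K27ac. The folds of these other islands were 4.39 and 3.71, 2.63 and 2.22, and 3.27 and 3.20. The medians of the set were 3.75 and 2.62. High read density in these islands was thus shared in part with the background library, but not all of them had low folds.

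In 503 islands the ends were identical in the H3K27ac list as well. These were shorter, with a median of 1200 bp, and their median log2 ratio of H3K122ac over H3K64ac was 0.05 (-0.03 to 0.09). H3K27ac islands were joined across gaps of 200 bp and those of the other marks across 600 bp. The part of this setting in the shorter length was not tested. Among them the H3K64ac fold went more closely with the H3K27ac fold (Pearson r = 0.78, Spearman rho = 0.71) than the H3K122ac fold did (0.68 and 0.63), and all 3 share the background count. After chr15:68715601-68716400, the highest ratios were 1.24 (1.04 to 1.46) at chr18:73786001-73787600, with 692, 255 and 335 reads of H3K122ac, H3K64ac and H3K27ac, and 1.24 (0.97 to 1.51) at chr9:85924201-85925600. The lowest were -1.26 (-1.56 to -0.97) at chr1:10370001-10371600, with 140, 293 and 223 reads, -1.24 (-1.58 to -0.91) at chr19:47607401-47608800 and -1.22 (-1.53 to -0.92) at chr2:39063601-39065200. The ratio of the globular marks itself had almost no relation to the H3K27ac fold in these islands (r = -0.01, rho = 0.02).

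Medians of single chromosomes lay within 0.14 of each other. They ran from -0.12 on chromosomes 14 (-0.21 to -0.06) and 11 (-0.18 to -0.04) to 0.01 on chromosome 8 (-0.04 to 0.07) and 0.02 on chromosome 19 (-0.06 to 0.16). The intervals of chromosomes 14 and 8 do not overlap, but those of 14 and 19, of 11 and 8 and of 11 and 19 do. These chromosomes are the extremes of 19, and no difference between chromosomes was tested. The set made up 7.69% of the H3K64ac islands on chromosome 11 and up to 10.4% on chromosome 3. Neighbouring islands of the set were only weakly alike. Over 783 adjacent pairs up to 50 kb apart the ratios had a Pearson r of 0.13 and a Spearman rho of 0.13, against 0.04 and 0.05 over 1329 pairs 50 to 200 kb apart and -0.04 and -0.01 over 625 pairs more than 1 Mb apart. Background density of the same near pairs had an r of 0.53.

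**Figure D5:**
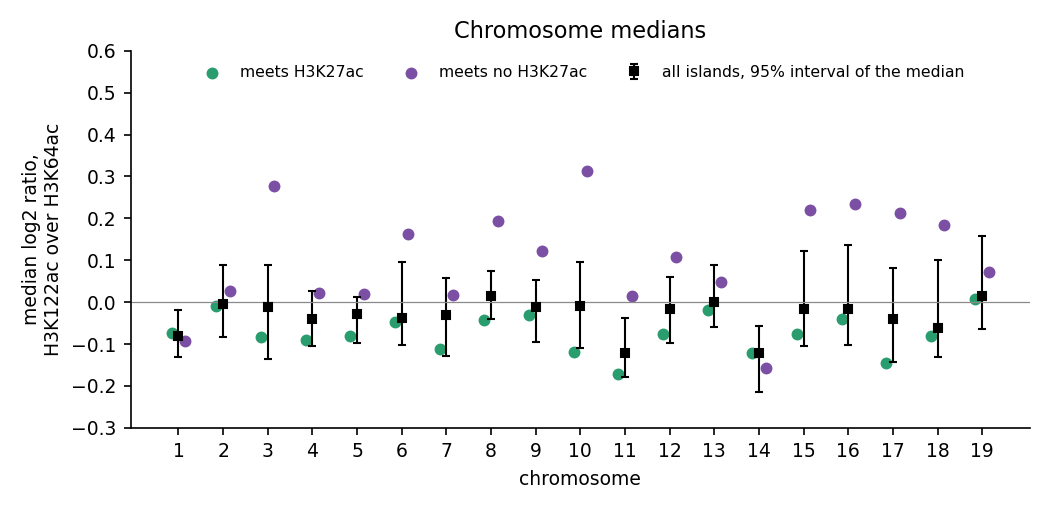
Median log2 ratio of read shares (y axis) on each numbered chromosome, for all islands (black squares, bars are 95% intervals of the median) and for islands with and without H3K27ac. All-island medians lie between -0.12 and 0.02, and islands with H3K27ac lie below those without on 17 of 19 chromosomes.

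Islands with identical ends had a median ratio close to that of islands whose ends differ. A further 41162 pairs of islands met only each other but differed in an end. The H3K64ac island was the longer one in 20593, the H3K122ac island in 18822, and 1747 had the same length at shifted positions. In 7498 pairs the difference was a single window of 200 bp at 1 end, just outside the rule, and their median log2 ratio of reads per kb was 0.01 (-0.01 to 0.02). For all pairs with differing ends it was -0.02 (-0.02 to -0.01), with a standard deviation of 0.51, close to that of the identical islands. H3K122ac was at least 2-fold higher in 3.09% of those pairs and H3K64ac in 1.67%. Compared with the rest of their lists, the identical islands were shorter than other H3K64ac islands, at 1800 against 2800 bp, and as long as other H3K122ac islands, and their median H3K122ac fold was 3.75 against 2.73. These features follow in part from the rule.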

How the data were processed

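The data were native ChIP-seq of H3K122ac and H3K64ac in mESC, with H3K27ac used to label islands. The submitters' processing notes name SICER 1.1, Bowtie 0.12.8 and HOMER 4.3, with mm9 as the mouse build, and do not give their roles here. Per the labels of the lists, islands were joined from windows of 200 bp across gaps of 600 bp (200 bp for H3K27ac) at a false discovery rate of 0.01 after replicates were merged. The deposited read counts of the immunoprecipitated and background libraries were not normalized by the authors. The deposited fold is the ratio of these counts divided by 1 library ratio per list, recomputed here and found constant. The deposited p-values and q-values are from the authors' caller. The identity of the background library was not stated in the sources read.

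Starts were written as 1-based positions. The log2 ratio of read shares was computed per island in Python 3.11.15 with numpy 2.4.6, pandas 2.3.3 and scipy 1.17.1. Intervals are exact at 95%: order-statistic intervals for medians over islands, and Clopper-Pearson intervals of the 2 counts for single islands. The Clopper-Pearson intervals cover counting error only. The order-statistic intervals rest on the spread between islands and take islands as independent, which neighbours are not. With 1 merged list per mark no test was made. The code was tested on simulated counts. Islands named were, with at least 100 reads in each list and 10 background reads, the 6 highest and 6 lowest in ratio, the 4 longest, the 3 highest and 3 lowest of 4000 bp or more, the 4 densest in both marks, and the 3 highest and 3 lowest with ends identical in the H3K27ac list, and the 2 highest and 2 lowest chromosomes. The islands and comparisons were chosen with earlier results of these data known. Alternatives changed the scaling, read filters, q-value, background subtraction, identity of the ends, the H3K27ac criterion and the fold. Length classes, groups by H3K27ac fold and the split at 2000 bp were chosen after seeing the data, and several boundaries of the lowest H3K27ac fold group were tried.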

Additional observations from a re-analysis of the deposited data

How the results depend on the processing

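No paired analysis was possible because the replicates of each mark were merged before the lists were made, and for the same reason no replicate could be left out. Of 101 values under alternatives, 71 stayed within the interval of the main value or, for counts, correlations and the chromosome range, within 1.5 times it. The 71 include values that could not change, because rescalings move all identical islands alike. Such values are the differences between groups, the chromosome range and the correlation of neighbours under rescaling, so 71 of 101 is not a measure of stability. The 6 differences by length, background and H3K27ac kept their direction in 32 of 32 values. A further 18 come from rescalings that move all islands alike and cannot change it. The 32 are not all separate checks. Islands with and without H3K27ac together make up the set, so in each setting the signs of these differences are tied. The overall median changed sign, to 0.0149 scaled to identical islands, 0.41 by authors' fold, 0.11 for reads above background and 0.00221 with ends within 200 bp. The numbers of islands at least 2-fold higher in H3K122ac and in H3K64ac became 780 and 0 by authors' fold, 883 and 290 above background, 512 and 165 with ends within 200 bp (15511 islands), 734 and 589 at 1.5-fold, and 32 and 12 with the interval past 2-fold. Above background, the difference from the median of the set was -0.28 for long islands, 0.43 and -0.36 for high and low background, -0.0836 with and 0.30 without H3K27ac, and the chromosome range was 0.34. Short islands differed by 0.23 with the read filter and 0.10 with ends within 200 bp. Without H3K27ac the difference was 0.0504 when 50% cover was needed and 0.0369 at an H3K27ac fold of 2, with -0.15 for islands that met it; in islands over 2000 bp, an alternative chosen after seeing the data, it was 0.26. The chromosome range was 0.22 at a q-value of at most 1e-10. Pairs with differing ends stood -0.0255 from the set by authors' fold and -0.0320 when the set took ends within 200 bp. The causes of these changes were not tested. Counting error alone would give a standard deviation of 0.18 in islands up to 1000 bp and 0.0649 in those of 4000 bp or more, and absolute levels of the marks cannot be compared.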

Other observations

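On chromosome X, which lies outside the numbered chromosomes, a further 233 islands had identical ends in both lists. Their median log2 ratio of H3K122ac over H3K64ac was -0.13 (-0.20 to -0.02), with 3 islands at least 2-fold higher in H3K122ac and 4 in H3K64ac, and 62.7% met H3K27ac. Background in them was 30.0 reads per kb, and median folds were 7.69 and 5.94. The 739 islands of the numbered chromosomes with a background between 20.8 and 38.6 reads per kb, the middle 50% of the X islands, had a median ratio of -0.22 (-0.27 to -0.19).

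The fold of a mark and the ratio were linked in opposite directions for the 2 marks, and share their counts. Islands with an H3K122ac fold of 10 or more (244) had a median ratio of 0.24, and islands with an H3K64ac fold of 10 or more (130) had -0.52. In 100 islands both folds were 10 or more.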
